A study of Mus musculus with 4 samples.

Results

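The genes described here are the enzymes and binding proteins that make, destroy and read the second messenger cyclic AMP. They were chosen by name: protein-coding genes called *Adcy* or *Pde* with a number (and, for *Pde*, a letter from a to d), the catalytic and regulatory subunits of protein kinase A (PKA), the PKA inhibitor peptides *Pkia*, *Pkib* and *Pkig*, the EPAC exchange factors *Rapgef3* and *Rapgef4*, and *Gnas*, the stimulatory G protein alpha subunit. The rule found 44 of the 56748 genes in the count table. No measured value entered the choice, but results of these data were known when the set was proposed.

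Adenylyl cyclases make cyclic AMP from ATP, most of them when a hormone receptor activates the stimulatory G protein, and phosphodiesterases break it down. Cyclic AMP then releases the catalytic subunits of PKA from their regulatory subunits and activates EPAC. In beta cells this pathway carries the signal of incretin hormones such as GLP-1, which raise insulin release when glucose is high, and in alpha cells it stimulates glucagon release.

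RNA was sequenced from islets of male C57BL/6J mice that had been held for 2 h at 25 mM glucose (high glucose, 2 libraries) or 2.5 mM glucose (low glucose, 2 libraries). Islets of both groups had recovered overnight in glucose-containing medium and had then spent some hours in glucose-free medium, and cycloheximide, a blocker of translation, was present at the end of the incubation in both. Low glucose is therefore a level reached after glucose starvation and not an untreated baseline. The study's methods describe pooling of islets from several mice and the division of each mouse's islets between the 2 glucose levels, and the labels number the libraries of each group 1 and 2. A pair below means the high- and low-glucose libraries of the same number. That the numbers pair the RNA libraries is an inference, so the calls are given without and with the replicate number as a block.

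Total counts were 18602778 and 19136068 in the high-glucose libraries and 17279505 and 19087526 in the low-glucose libraries, and the cAMP pathway genes took 0.256 to 0.324% of the counts of a library. Values are CPM, read counts relative to the library total scaled by TMM factors, and levels are compared between genes only as CPM per kilobase of exonic length (CPM per kb). Of the 44 genes, 37 had enough reads to be tested. High-glucose replicate 2 stood apart: its log2 CPM correlated with those of the other libraries at 0.939 to 0.96, against 0.967 to 0.981 among the others. The summed CPM of 8 beta-cell markers was 87900 and 201000 at high glucose against 81400 and 111000 at low glucose, and that of 5 alpha-cell markers was 24900 and 40600 against 29200 and 32300. Their part in the results below was not tested. All 8 beta-cell and all 5 alpha-cell markers were detected in every library. So were all listed markers of delta, PP, endothelial, macrophage and mesenchymal cells, so detection alone does not identify the tissue. Mesenchymal markers split by replicate number instead, with 498 and 127 at high glucose against 530 and 101 at low glucose, and so did endothelial markers, with 73.5 and 218 against 64.6 and 248. Acinar markers summed to 599 and 214 at high glucose against 249 and 268 at low glucose, ductal markers to 787 and 830 against 877 and 592, and macrophage markers to 111 and 182 against 110 and 135. In the fit with the replicate block described below, 3 of the 8 beta-cell markers were higher at high glucose, against 1.85% of all tested genes. These were *Ins1*, *Ins2* and *G6pc2*, and the other beta-cell markers did not pass. *Ins1* had 23630 and 53000 CPM at high glucose against 21720 and 28600 CPM at low glucose. *Ins2* had 47830 and 121200 against 46130 and 65930 CPM. For both, only high-glucose replicate 2 lay above both low-glucose libraries. They are short (1062 and 1312 exonic bases), and no value with the length trend described below removed is given. The study reports insulin mRNA as stable across glucose levels by quantitative PCR. No marker of the other cell types passed.

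Without the block, edgeR's quasi-likelihood test (Benjamini-Hochberg adjustment over 15665 genes, threshold 0.05) placed no pathway gene past the threshold, and no other gene either (1643 genes had an unadjusted p under 0.05; DESeq2 called 184 genes and limma-voom 0). With the replicate number as a block, 4 of the 37 tested genes were lower at high glucose and 0 were higher. These were the phosphodiesterases *Pde10a* and *Pde7b*, the cyclase *Adcy9* and the PKA inhibitor *Pkia*. The share of 10.8% compares with 6.86% of all tested genes, or 5.01% for lower calls alone, and is not read as a property of the set. DESeq2 placed 1 of these genes, *Pde10a*, past its threshold both without and with the block, against 1.62% and 2.15% of all genes it adjusted. By the study's own thresholds (a log2 fold change beyond 0.58 either way, with an unadjusted p under 0.05), 4 of 37 or 10.8% passed in the unblocked fit, against 9.95% of all tested genes. They were *Pde10a*, *Pde7b* and *Pkia*, all lower, and *Pde1b*, higher. In islets, fewer cells of a type and less RNA per cell cannot be told apart.

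**Figure D1:**
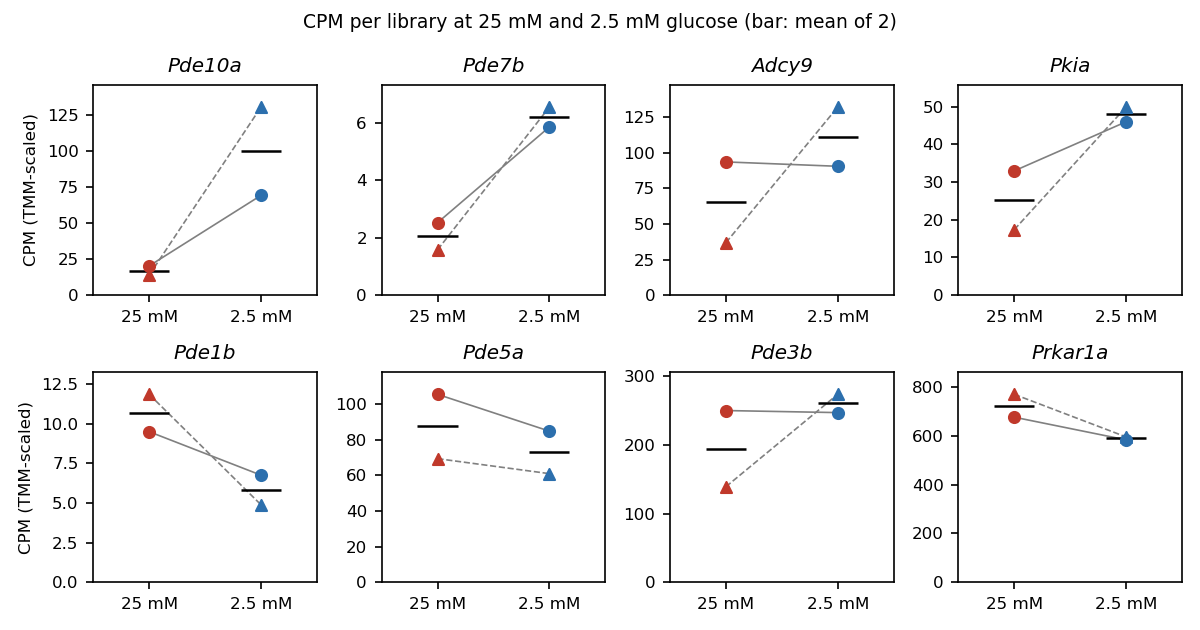
TMM-scaled CPM of 8 pathway genes in each library, with high glucose (25 mM) on the left and low glucose (2.5 mM) on the right; circles with solid lines are replicate 1, triangles with dashed lines replicate 2, and bars are means of 2. The high-glucose libraries of Pde10a (20.3 and 13.8) lie far below the low-glucose libraries (69.1 and 130.3), whereas the groups of Adcy9 overlap.

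The proximal promoters of the genes past the blocked threshold are shown because PKA acts on transcription through the factor CREB, whose binding site, the cAMP response element (CRE), has the letters TGACGTCA and the half-site TGACG. Each window runs from 250 bases before to 50 after a RefSeq transcription start of the GRCm38.p6 build, read 5′ to 3′ on the strand of the gene. Capitals mark a half-site on either strand. *Pkia* is named only.
Pde10a, chr17:8801495-8801794, plus strand: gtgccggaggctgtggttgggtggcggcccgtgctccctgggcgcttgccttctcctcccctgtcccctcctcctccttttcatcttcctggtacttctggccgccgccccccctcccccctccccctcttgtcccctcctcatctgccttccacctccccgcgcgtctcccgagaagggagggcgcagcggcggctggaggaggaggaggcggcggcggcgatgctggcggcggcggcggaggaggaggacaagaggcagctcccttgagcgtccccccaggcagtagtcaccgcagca
Pde10a, second start, chr17:8849735-8850034, plus strand: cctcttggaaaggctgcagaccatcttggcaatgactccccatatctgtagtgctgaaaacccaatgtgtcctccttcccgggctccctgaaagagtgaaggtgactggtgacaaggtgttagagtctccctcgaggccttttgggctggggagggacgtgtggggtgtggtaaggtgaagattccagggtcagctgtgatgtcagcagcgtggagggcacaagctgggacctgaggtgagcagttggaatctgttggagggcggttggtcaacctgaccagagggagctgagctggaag
Pde7b, chr10:20548279-20548578, minus strand: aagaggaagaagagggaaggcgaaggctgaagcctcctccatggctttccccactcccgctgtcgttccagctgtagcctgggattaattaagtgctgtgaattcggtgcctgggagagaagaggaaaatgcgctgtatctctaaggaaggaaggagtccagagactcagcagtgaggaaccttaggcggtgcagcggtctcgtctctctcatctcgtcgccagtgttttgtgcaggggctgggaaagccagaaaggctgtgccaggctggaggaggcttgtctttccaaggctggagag
Adcy9, chr16:4420449-4420748, minus strand: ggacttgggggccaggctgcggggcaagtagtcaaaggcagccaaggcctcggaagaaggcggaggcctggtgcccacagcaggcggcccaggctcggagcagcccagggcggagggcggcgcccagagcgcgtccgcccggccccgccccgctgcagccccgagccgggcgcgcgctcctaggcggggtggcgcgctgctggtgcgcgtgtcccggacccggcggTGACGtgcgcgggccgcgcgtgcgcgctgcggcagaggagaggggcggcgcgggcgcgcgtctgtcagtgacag

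Of these windows only that of *Adcy9* held a half-site, in the longer form TGACGT. Both windows of *Pde10a* and that of *Pde7b* held none, which says only that these letters are not in these windows. GC content was 71.3% and 56.7% in the *Pde10a* windows, 55.7% in that of *Pde7b* and 78.3% in that of *Adcy9*, against a median of 52.7% over all 32851 windows of the table. Over the whole set, 35 genes had 78 windows, of which 20 (25.6%) held TGACG on either strand, against 20.8% of all windows of the same length. The longer TGACGT, which lies within some of those matches, was in 6 windows (7.69%) of *Adcy9*, *Pde4a*, *Pde4b*, *Prkar1a* and *Rapgef3*, against 7.51% of all windows. The full TGACGTCA occurred in 2 overlapping windows of *Prkar1a* (2.56%, against 1.79% of all windows). Each match is a description of the letters and not a measured binding site.

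Levels per length, which use the single exonic length given for each gene, were highest for subunits of PKA. A gene whose main transcript is shorter than that length gets too low a level, so the ranking is approximate. *Gnas*, with 11387 exonic bases, had more CPM than *Prkaca* in every library but fewer CPM per kb. *Prkar1a*, the type I alpha regulatory subunit of PKA, was the most abundant member, with 135 to 178 CPM per kb over the 4 libraries, and its range lay above that of every other member. The catalytic subunit *Prkaca* (59.0 to 77.6 CPM per kb) and the regulatory subunit *Prkar1b* (52.7 to 72.3 CPM per kb) followed with overlapping ranges. Next came the second catalytic subunit *Prkacb* (40.6 to 52.3 CPM per kb) and the cyclase *Adcy6* (26.9 to 38.1 CPM per kb), each clear of the member above it. From *Adcy6* down to *Pde5a* each range overlapped that of its neighbour, so the order there is not resolved. The 7 members that were not tested had 0 to 39 reads over all libraries. *Pde2a* had 0 reads in every library, where a count of 0 allows up to 3 counts, or 0.152 and 0.169 CPM at high glucose and 0.168 and 0.161 CPM at low glucose. Its gene model overlaps a second protein-coding model on the same strand, *Gm45837*, which had 1 read in all. How reads that fall in both were assigned is not given in the sources used here, so the 0 of *Pde2a* is uncertain.

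**Figure D2:**
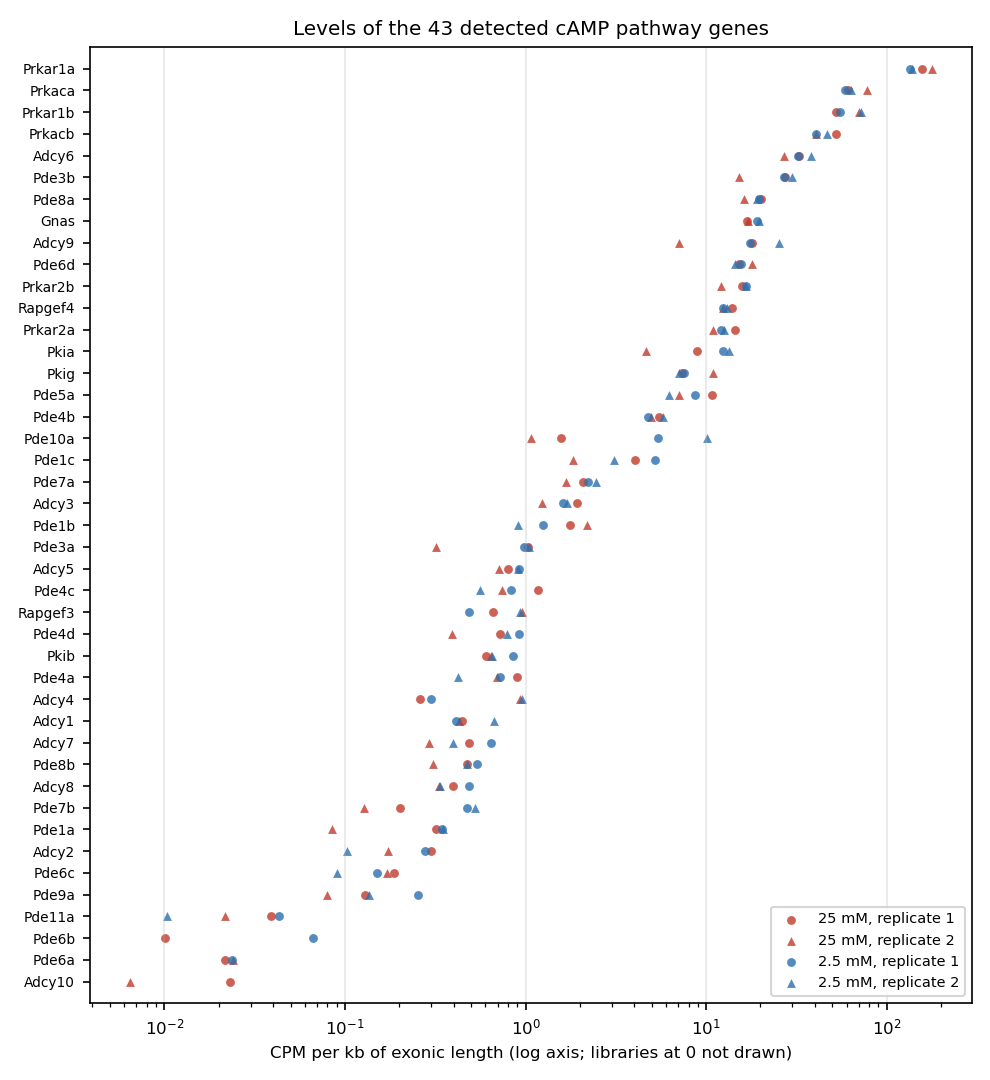
Level of each detected pathway gene in the 4 libraries as CPM per kb of exonic length on a log axis, ordered by mean; red is high glucose (25 mM), blue low glucose (2.5 mM), circles replicate 1 and triangles replicate 2. Prkar1a leads at 135 to 178 CPM per kb, and the red points of Pde10a lie apart from the blue ones.

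*Gnas*, which couples receptors to the cyclases, had 191.4 and 194.6 CPM at high glucose against 216.6 and 222.3 CPM at low glucose. The groups did not overlap, but the log2 fold change was -0.19 (SE 0.20, edgeR unblocked adjusted p = 0.722) and it did not pass with the block either (adjusted p = 0.769). Its sign turned to 0.24 when the trend with gene length, described below, was also removed. Several promoters and antisense transcripts share the *Gnas* locus, and a gene total does not separate them.

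Among the 10 adenylyl cyclases, *Adcy6* and *Adcy9* together supplied most of the transcripts. *Adcy6*, a cyclase inhibited by calcium, had 222.4 and 182.3 CPM at high glucose against 218.1 and 258.2 CPM at low glucose. That was 59.1 and 70.6% of the summed cyclase CPM per kb at high glucose against 59.3 and 55.5% at low glucose. Its groups overlapped, with a log2 fold change of -0.24 (SE 0.22, edgeR unblocked adjusted p = 0.687).

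*Adcy9*, a widely expressed cyclase that responds weakly to forskolin, had 93.7 and 36.9 CPM at high glucose against 90.6 and 132.2 CPM at low glucose. This difference rests mainly on high-glucose replicate 2, which was the lowest, while high-glucose replicate 1 lay between the low-glucose values. Within pair 1 the log2 ratio was 0.05, within pair 2 -1.84. The fitted log2 fold change was -0.77 without the block (SE 0.43, edgeR adjusted p = 0.535) and -0.89 with it (SE 0.30, edgeR adjusted p = 0.0412). Without high-glucose replicate 2 the unblocked value was -0.24, and without high-glucose replicate 1 it was -1.59. The blocked fit draws its spread from all genes, so a gene whose pairs differ this much can still pass it. As a share of cyclase CPM per kb, *Adcy9* made up 32.5 and 18.6% at high glucose against 32.1 and 37.1% at low glucose.

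The cyclases best known from islet physiology were rare transcripts here. *Adcy5*, which in human islets is linked to glucose-stimulated cAMP, had 5.76 and 5.14 CPM at high glucose against 6.65 and 6.50 CPM at low glucose. The groups did not overlap, yet the log2 fold change of -0.27 (SE 0.33) had an edgeR unblocked adjusted p of 0.762. *Adcy8*, a cyclase stimulated by calcium and calmodulin, had 3.23 and 2.71 CPM at high glucose against 3.97 and 2.74 CPM at low glucose, with overlapping groups and a log2 fold change of -0.17 (SE 0.43, edgeR unblocked adjusted p = 0.900). *Adcy4* followed the replicate number and not glucose, with 1.21 and 4.35 CPM at high glucose against 1.40 and 4.46 CPM at low glucose. The summed endothelial markers were likewise higher in replicate 2 at each glucose level, and their part in the *Adcy4* values was not tested. The calcium-stimulated *Adcy1* and the remaining *Adcy2*, *Adcy3* and *Adcy7* had overlapping groups and did not pass. The soluble cyclase *Adcy10* had 5 reads in all. Summed over all 10 cyclases, levels were 55.4 and 38.1 CPM per kb at high glucose against 54.3 and 68.6 CPM per kb at low glucose, which is 0.03 as a log2 ratio in pair 1 and -0.85 in pair 2.

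Of the phosphodiesterases, 16 can hydrolyse cAMP, either alone or together with cGMP. *Pde3b*, the insulin-responsive phosphodiesterase that lowers cAMP in beta cells, and *Pde8a*, a cAMP-specific enzyme, led them. *Pde3b* had 33.3 to 40.8% of their summed CPM per kb and *Pde8a* had 25.4 to 35.4% over the 4 libraries.

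*Pde10a*, a dual cAMP and cGMP phosphodiesterase best known from striatal neurons, had 20.3 and 13.8 CPM at high glucose against 69.1 and 130.3 CPM at low glucose. Both high-glucose libraries lay below both low-glucose libraries by a wide margin, and the gap was larger in pair 2. The means were 17.04 ± 4.55 CPM at high glucose and 99.7 ± 43.2 CPM at low glucose (SD, n = 2 each). Fitted over all libraries, the log2 fold change was -2.55 without the block (SE 0.37, edgeR adjusted p = 0.278, unadjusted p = 0.000213) and -2.50 with it (SE 0.30, edgeR adjusted p = 3.07e-13). The blocked value is 5.65-fold lower at high glucose. DESeq2 gave -2.55 (adjusted p = 3.07e-09) without the block. Within pair 1 the log2 ratio was -1.77, within pair 2 -3.23. The unblocked value ranged from -2.94 to -1.97 when each library was left out.

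The place of *Pde10a* among the cAMP phosphodiesterases differed accordingly. It made up 2.34 and 2.35% of their CPM per kb at high glucose against 7.63 and 13.4% at low glucose. Summed over all 16, levels were 67.3 and 45.9 CPM per kb at high glucose against 70.5 and 75.8 CPM per kb at low glucose. Without *Pde10a* they were 65.7 and 44.8 against 65.1 and 65.6 CPM per kb, so that the sum in high-glucose replicate 1 was then no lower than at low glucose and only replicate 2 was.

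**Figure D3:**
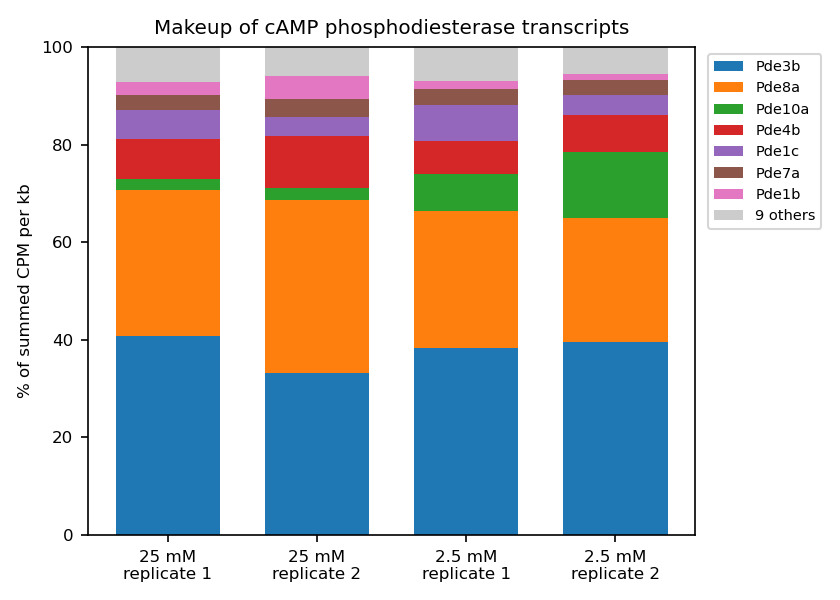
Makeup of the transcripts of the 16 phosphodiesterases that can hydrolyse cAMP, as a percentage of their summed CPM per kb in each library, with high glucose (25 mM) on the left. Pde10a (green) is 2.34 and 2.35% at high glucose and 7.63 and 13.4% at low glucose, while Pde3b and Pde8a hold the largest shares in every library.

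*Pde7b*, a cAMP-specific phosphodiesterase also known from the striatum, had 2.53 and 1.58 CPM at high glucose against 5.86 and 6.56 CPM at low glucose. The groups did not overlap, at counts of 50 and 28 reads against 105 and 122 reads. Its log2 fold change was -1.59 without the block (SE 0.43, edgeR adjusted p = 0.431) and -1.61 with it (SE 0.39, edgeR adjusted p = 0.00208), or 3.06-fold lower. Within pair 1 the log2 ratio was -1.18, within pair 2 -1.98. DESeq2 gave an adjusted p of 0.0881 without the block. When each library was left out, edgeR's unblocked value ranged from -1.966 (without high-glucose replicate 1) to -1.285 (without high-glucose replicate 2). Its relative *Pde7a* had 16.1 and 12.9 CPM at high glucose against 17.2 and 19.0 CPM at low glucose and did not pass.

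The other cAMP-specific enzymes did not pass in either fit. *Pde8a* had 81.2 and 65.6 CPM at high glucose against 79.8 and 77.8 CPM at low glucose, with a log2 fold change of -0.10 (SE 0.22, edgeR unblocked adjusted p = 0.877). Within the *Pde4* family, the targets of rolipram, *Pde4b* was the most abundant at 4.78 to 5.76 CPM per kb. *Pde4a* and *Pde4c* had unblocked log2 fold changes of 0.48 and 0.46 with overlapping groups. *Pde4d* had 8.69 and 4.68 CPM at high glucose against 11 and 9.46 CPM at low glucose, a log2 fold change of -0.61 (edgeR unblocked adjusted p = 0.558).

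*Pde3b* had 250 and 139.1 CPM at high glucose against 247.0 and 273.6 CPM at low glucose. High-glucose replicate 2 alone was low, with log2 ratios of 0.02 (pair 1) and -0.98 (pair 2). The log2 fold change of -0.42 (SE 0.30) had an edgeR adjusted p of 0.598 without and 0.335 with the block. Without high-glucose replicate 1 the unblocked value was -0.90, and without high-glucose replicate 2 it was -0.05. *Pde3a*, the relative known from heart and platelets, had the same layout, with 13.1 and 4.06 CPM at high glucose against 12.5 and 13.3 CPM at low glucose.

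The calcium- and calmodulin-activated *Pde1* family pointed in different directions. *Pde1b* had 9.50 and 11.9 CPM at high glucose against 6.76 and 4.89 CPM at low glucose. It was 1 of 2 tested pathway genes, with *Prkar1a*, whose high-glucose libraries both lay above both low-glucose libraries. The log2 fold change was 0.87 (SE 0.33, edgeR unblocked adjusted p = 0.451, unadjusted p = 0.0321) and 0.88 with the block (SE 0.32, adjusted p = 0.0743). Once the length trend was removed in the blocked fit it was 0.99 and passed (edgeR adjusted p = 0.00884). *Pde1c*, the *Pde1* gene with the highest level per length here, had 82.9 and 37.5 CPM at high glucose against 106.7 and 63.4 CPM at low glucose. Its ratio was below 0 in both pairs, but replicate 1 was also above replicate 2 within each group, and it did not pass (log2 fold change -0.50, SE 0.41, edgeR unblocked adjusted p = 0.645). With 20520 bases *Pde1c* is the longest tested member, and with the length trend removed its value was 0.02 without and 0.06 with the block. *Pde1a* had 1.92 and 0.508 CPM at high glucose against 2.07 and 2.10 CPM at low glucose, with 9 reads in high-glucose replicate 2.

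Of the cGMP-specific phosphodiesterases, which stand outside cAMP breakdown, only *Pde5a*, the target of sildenafil, was tested. It had 105.4 and 69.4 CPM at high glucose against 84.8 and 61.0 CPM at low glucose, overlapping between groups and higher in replicate 1 than in replicate 2 at each level. The log2 fold change was 0.26 (SE 0.28, edgeR unblocked adjusted p = 0.729), and 0.61 in the blocked fit without the length trend, where it passed (edgeR adjusted p = 0.0359). Without high-glucose replicate 1 it was -0.07. *Pde6d*, which carries a phosphodiesterase name but encodes a carrier of prenylated proteins, had 33.0 and 39.1 CPM at high glucose against 34.2 and 31.5 CPM at low glucose. Its log2 fold change of 0.14 (SE 0.22, edgeR unblocked adjusted p = 0.832) was -0.04 with the length trend removed. The photoreceptor genes *Pde6a*, *Pde6b* and *Pde6c* had 6, 7 and 33 reads in all, and the gene model of *Pde6a* overlaps the pseudogene *Rps2-ps10*, which had 18 and 58 reads at high glucose against 39 and 36 at low glucose.

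No PKA subunit passed in either fit, although the group had the highest summed levels per length of the pathway. *Prkar1a* had 675.3 and 768.7 CPM at high glucose against 582.6 and 594.6 CPM at low glucose. The groups did not overlap, but the log2 fold change of 0.30 (SE 0.20) had an edgeR adjusted p of 0.582 without and 0.561 with the block. *Prkaca* had 151.5 and 193.1 CPM at high glucose against 146.7 and 157.5 CPM at low glucose, overlapping, with a log2 fold change of 0.18 (SE 0.22, edgeR unblocked adjusted p = 0.763). *Prkacb* had 458.8 and 356.2 CPM at high glucose against 356.8 and 411.8 CPM at low glucose. The summed regulatory subunits amounted to 211 and 229% of the summed catalytic subunits per kb at high glucose against 219 and 217% at low glucose. Among regulatory transcripts, *Prkar1a* was 65.3 and 65.7% at high glucose against 61.8 and 57.6% at low glucose, and the type II subunits *Prkar2a* and *Prkar2b* ranged from 4.05 to 7.58% over the 4 libraries.

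*Pkia*, which binds free catalytic subunits and blocks them, had 33.0 and 17.4 CPM at high glucose against 46.0 and 49.9 CPM at low glucose. The groups did not overlap, and high-glucose replicate 2 was again the lower one. The fitted log2 fold change was -0.93 without the block (SE 0.33, edgeR adjusted p = 0.451) and -0.996 with it (SE 0.28, edgeR adjusted p = 0.0123). Within pair 1 the log2 ratio was -0.48, within pair 2 -1.52. The unblocked value was -0.53 without high-glucose replicate 2 and -1.46 without high-glucose replicate 1. *Pkig*, the gamma inhibitor, had 29.2 and 43.6 CPM at high glucose against 30.2 and 28.3 CPM at low glucose. Per kb, *Pkia* made up 52.8 and 28.8% of the inhibitor transcripts at high glucose against 59.5 and 63.4% at low glucose, and *Pkig* 43.5 and 67.3% against 36.4 and 33.5%. The sum of the 3 inhibitors was 16.8 and 16.2 CPM per kb at high glucose against 20.8 and 21.2 CPM per kb at low glucose.

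*Rapgef4* (EPAC2), the exchange factor through which cAMP potentiates exocytosis in beta cells, had 92.6 and 82.5 CPM at high glucose against 82.8 and 86.7 CPM at low glucose. The groups overlapped, with a log2 fold change of 0.05 (SE 0.20, edgeR unblocked adjusted p = 0.945). *Rapgef4* made up 92.8 to 96.2% of the EPAC transcripts per kb, and *Rapgef3* (EPAC1) the remainder, with 4.19 and 6.10 CPM at high glucose against 3.07 and 5.91 CPM at low glucose.

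Counted over the pathway, both high-glucose libraries lay below both low-glucose libraries for 11 of the 37 tested genes (29.7%, against 25.9% of all tested genes) and above them for 2 (5.41%, against 22.4%). The groups of the other 24 overlapped. For the 37 the log2 ratio had a median of 0.02 (pair 1) and -0.23 (pair 2), where that of all tested genes was -0.03 and 0.01. The ratio had 1 sign in both pairs for 24 genes (64.9%, against 68.1% of all tested genes), 16 of them below 0 and 8 above. It was above 0 in pair 1 and below 0 in pair 2 for 11. The replicate number alone also separated libraries: both replicate 1 libraries were above both replicate 2 libraries for 8 genes (21.6%, against 19.4% of all tested genes), and below them for 4 (10.8%, against 15.1%).

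**Figure D4:**
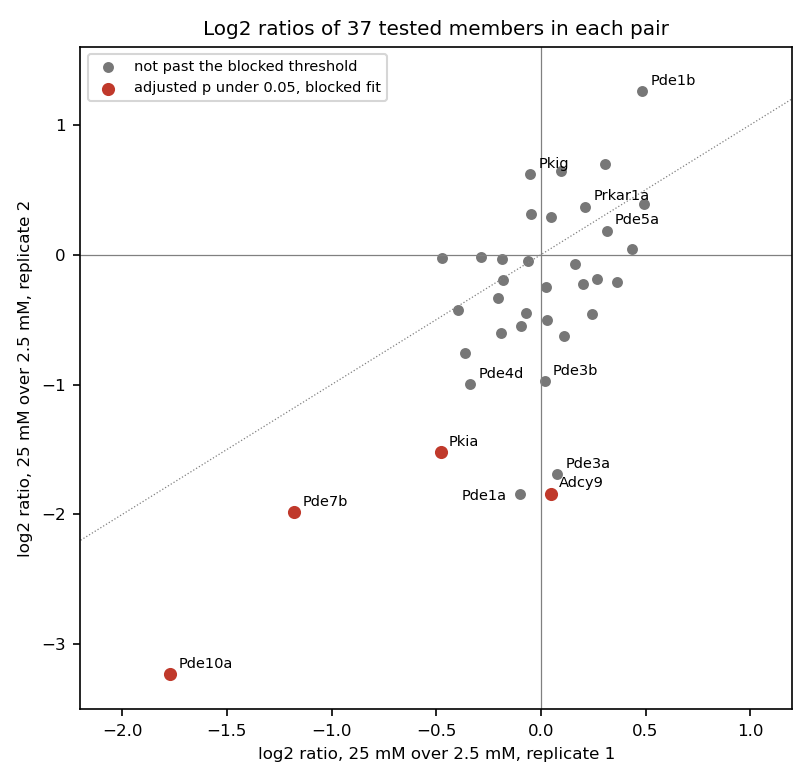
Log2 ratio of high glucose (25 mM) over low glucose (2.5 mM) for the 37 tested pathway genes in pair 1 (x axis) and pair 2 (y axis), with the dotted line marking equal ratios; red points passed edgeR's adjusted threshold with the replicate block. Pde10a (-1.77 and -3.23) and Pde7b (-1.18 and -1.98) are low in both pairs, while Adcy9 (0.05 and -1.84) is low in pair 2 only.

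Length of the transcript went with these ratios. Over all tested genes the log2 ratio had a slope of -0.06 per doubling of exonic length in pair 1 and -0.29 in pair 2. Pathway genes were long, with a median of 6677 bases against 4129 for all tested genes, and 30 of the 37 were longer than that. After each pair's length trend was subtracted, their median came to 0.02 for pair 1 and 0.04 for pair 2. *Pde10a* stayed -1.61 and -2.46 from the trend, *Pde7b* -1.02 and -1.23, *Pkia* -0.48 and -1.57, and *Adcy9* 0.08 and -1.69, in pair 1 and pair 2. With block and length trend removal together, edgeR placed 6 of 37 (16.2%, against 8.71% of all tested genes) past the threshold, 4 of them lower and 2 higher (backgrounds of 4.96% and 3.75%). These were the same 4 lower genes and, higher, *Pde1b* and *Pde5a*. *Pde10a* was then -2.03 (adjusted p = 1.64e-17), *Pde7b* -1.17 (adjusted p = 0.0171), *Adcy9* -0.80 (adjusted p = 0.00456) and *Pkia* -1.02 (adjusted p = 0.000174).

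**Figure D5:**
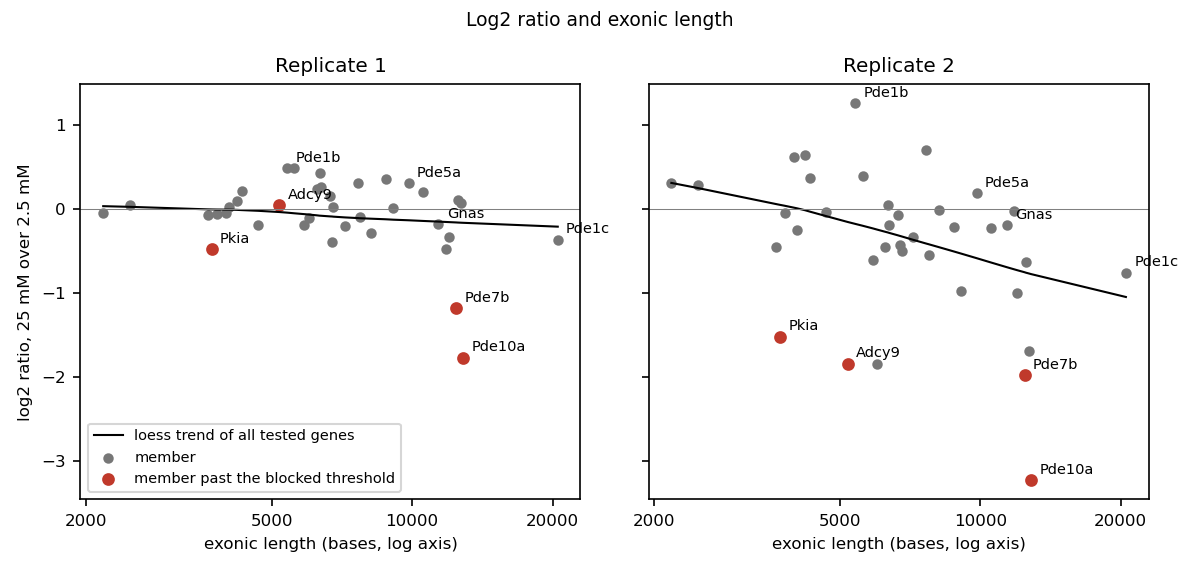
Log2 ratio of high glucose (25 mM) over low glucose (2.5 mM) against exonic length in bases (log axis) for the 37 tested pathway genes, in replicate 1 (left) and replicate 2 (right); the line is the loess trend of all 15665 tested genes and red points passed the blocked threshold. The trend is flatter in replicate 1 (slope -0.06 per doubling) than in replicate 2 (-0.29), and Pde10a and Pde7b lie below it in both.

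Genes that work beside the pathway were read from further lists. Of 12 tested AKAP scaffolds, which hold PKA near its substrates, the blocked fit placed 0 higher and 2 lower, against 1.85% higher and 5.01% lower of all tested genes. *Akap9*, a scaffold of the Golgi and centrosome, had 97.2 and 51.1 CPM at high glucose against 132.3 and 147.0 CPM at low glucose, with a blocked log2 fold change of -0.98 (SE 0.29, edgeR adjusted p = 0.0154). It has 22102 exonic bases, more than *Pde1c*, at whose 20520 bases the length trend was -0.21 in pair 1 and -1.05 in pair 2. Values with the length trend removed are not given for the listed genes. *Akap10*, a mitochondrial scaffold, had 32.3 and 19.7 CPM at high glucose against 43.1 and 47.5 CPM at low glucose, with a blocked log2 fold change of -0.84 (SE 0.28, edgeR adjusted p = 0.0435). None of the 12 passed in edgeR or DESeq2 without the block. In edgeR, 2 of them had an unadjusted p under 0.05, against 10.5% of all tested genes.

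Receptors that raise cAMP went both ways. Of 18 tested genes in the list of Gs-coupled receptors, 1 was higher and 2 were lower in the blocked fit, against 1.85% higher and 5.01% lower of all tested genes. The corticotropin-releasing hormone receptor *Crhr1* was the higher one, at 1.36 and 2.03 CPM at high glucose against 0.447 and 0.323 CPM at low glucose (log2 fold change 2.11, SE 0.65, edgeR blocked adjusted p = 0.0258). These levels are low, since 3 counts amount to 0.168 and 0.161 CPM in the low-glucose libraries. The adenosine receptor *Adora2b* had 17.7 and 5.31 CPM at high glucose against 47.0 and 19.5 CPM at low glucose (log2 fold change -1.63, SE 0.29, edgeR blocked adjusted p = 4.87e-06). It was low in both pairs although replicate 1 exceeded replicate 2 at each level. The fatty acid receptor *Ffar1*, which couples chiefly to Gq, was the other lower one (-0.82, edgeR blocked adjusted p = 0.047). The incretin receptor *Glp1r* had 780.3 and 580.7 CPM at high glucose against 783.0 and 936.2 CPM at low glucose and did not pass (edgeR blocked adjusted p = 0.462).

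Of 12 tested genes in the list of Gi-coupled receptors, a class that lowers cAMP, 1 was higher and 2 were lower in the blocked fit, with the same background. Which G protein each listed receptor uses in these islets was not measured. The galanin receptor *Galr2* had 7.32 and 8.41 CPM at high glucose against 1.73 and 2.69 CPM at low glucose (log2 fold change 1.85, SE 0.37, edgeR blocked adjusted p = 8.64e-05). The cannabinoid receptor *Cnr1* had 13.6 and 4.12 CPM at high glucose against 30.3 and 25.6 CPM at low glucose (log2 fold change -1.85, SE 0.30, edgeR blocked adjusted p = 2.18e-07). The somatostatin receptor *Sstr3* had 206.5 and 200 CPM at high glucose against 305.6 and 434.6 CPM at low glucose (log2 fold change -0.84, SE 0.26, edgeR blocked adjusted p = 0.0277). None of these receptors passed edgeR's threshold without the block. DESeq2 without the block called 1 gene of the Gi list higher and 1 lower, against 0.474% and 1.14% of all genes it adjusted. The 6 inhibitory and olfactory G protein alpha subunits and the 13 tested genes of cGMP synthesis and PKG had no member past the blocked threshold in either direction. A list of cAMP efflux and possible cAMP sensors held 7 tested genes. The blocked fit placed 0 of them higher and 1 lower, against 1.85% and 5.01% of all tested genes. The lower one was *Rapgef6*, a relative of EPAC (-0.87, SE 0.28, edgeR blocked adjusted p = 0.036). It had 22.8 and 11.9 CPM at high glucose against 29.5 and 31.1 CPM at low glucose, and has 13295 exonic bases. Binding of cAMP by its product was not measured.

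With the block, 8 of 25 tested genes in a list of CREB targets were higher and 1 was lower, namely the kinase gene *Pim1* (-1.08), against 1.85% and 5.01% of all tested genes. The higher ones were *Nr4a1*, *Nr4a2*, *Fos*, *Fosb*, *Crem*, *Rgs16*, *Egr1* and *Npas4*. The list was chosen with results of these data known and holds immediate early genes that the study names as raised. Its share is therefore not a test of CREB activity. *Crem*, whose short product ICER represses cAMP-responsive genes, had 34.7 and 61.1 CPM at high glucose against 18.9 and 16.5 CPM at low glucose (log2 fold change 1.39, SE 0.29, edgeR blocked adjusted p = 0.000148). Without the block none of the 25 passed edgeR's threshold. An unadjusted p under 0.05 in edgeR was seen for 12, against 10.5% of all tested genes. DESeq2 without the block called 7 of the 25 higher and 0 lower, against 0.474% higher and 1.14% lower of all genes it adjusted.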

How the data were processed

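RNA of mouse islets was sequenced in 4 libraries, 2 per glucose level. Per the study's methods and the labels, the authors trimmed and filtered reads (fastp), aligned these using HISAT2 2.2.1 and assigned reads to genes by featureCounts. Values in the deposited table are raw counts per gene. The labels name mm10, but 0 of 44 member start positions in the table equalled those of GENCODE vM21, an annotation of that build, so table positions are not printed. Whether counting used strand, and how reads with several alignments were treated, is not given in the sources used here. Gene models of 31 members overlap another model, 3 of them one with at least 20 reads in a library (*Adcy3* with *Cenpo*, *Pde3a* with *Gm28523*, *Pde6a* with *Rps2-ps10*), and their counts are uncertain to that extent.

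Counts were tested over the whole table with edgeR's two-sided quasi-likelihood F test (edgeR 4.0.16, R 4.3.3), after TMM scaling and the default filterByExpr, and p-values were adjusted by Benjamini-Hochberg over the 15665 genes kept. The standard error is the log2 fold change divided by the square root of F. The replicate number as a block was the first alternative. Deviations from the group means correlated between libraries of the same number (Pearson r of 0.409 over all tested genes, a description only), and the number is read as a pairing by inference from the study's methods. The blocked fit has 1 residual degree of freedom. DESeq2 1.42.0, limma-voom (limma 3.58.1), other scalings, no filter on low counts, removal of a loess length trend (span 0.5) and leaving out each library were the other alternatives. With 2 libraries per group, p-values rest on the spread between these libraries, with each gene's spread drawn toward that of all tested genes. The scripts were tested on simulated data. Sequences came from a RefSeq promoter table (GRCm38.p6).

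Members, roles and lists were chosen with earlier results of these data known. Genes given in full were those past the adjusted threshold in either fit, those with an unadjusted p under 0.05 in the unblocked fit, the member with the highest level per length in each role, and *Pde1b*, *Gnas*, *Prkaca*, *Prkar1a*, *Rapgef4*, *Adcy5* and *Adcy8*. The other members and the *Glp1r* and *Crem* values were added to describe families and neighbours after their values were seen.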

Additional observations from a re-analysis of the deposited data

How the results depend on the processing

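The number of pathway genes past the adjusted threshold was 0 in the unblocked edgeR fit, 4 with the replicate block and 6 with length trend removal added. It was 3 with no filter on low counts, 1 in DESeq2 without and 1 with the block, and 4 in limma-voom with the block. In the same order, 0%, 6.86%, 8.71%, 2.29%, 1.62%, 2.15% and 6.19% of all genes tested or adjusted passed. Leaving out 1 library at a time gave 0 to 7, the 7 coming from the fit that omits high-glucose replicate 1 (*Pde10a*, *Pde7b*, *Adcy9*, *Pkia*, *Pde3b*, *Pde3a* and *Pde1c*, where 20% of all tested genes passed), the 0 from omitting high-glucose replicate 2, and 1 from omitting either low-glucose library. The lone library of a group is then assumed to vary like the others, and the blocked fit could not be repeated in this way because no residual degree of freedom remains. Passing the study's thresholds were 4 in the unblocked fit, 7 with the replicate block, 7 when length trend removal was added to it, and 2 to 10 when a library was left out (10 on omitting high-glucose replicate 1, 2 on omitting replicate 2 of either group). The other alternatives left these counts within 1.5 times. The share of all tested genes that change sign with the length trend removed was not counted. Among the 37 tested pathway genes, the log2 fold change then changed sign both without and with the block for 8. These were *Adcy8* (0.11 and 0.12), *Gnas* (0.265 and 0.235), *Pde6d* (-0.04 and -0.042), *Adcy1*, *Adcy3*, *Pde4b*, *Pde1c* and *Pkib*. Among the genes given in full, with 1 library left out, the value ranged from -0.363 to 0.114 for *Adcy8*, from -0.067 to 0.547 for *Pde5a*, from -0.26 to 0.055 for *Pde8a* and from -0.035 to 0.139 for *Rapgef4*, and so changed sign. None of these values passed the threshold, and the cause was not tested. *Pde10a*, *Pde7b*, *Adcy9* and *Pkia* kept their direction under every alternative run. Other scalings moved the median log2 fold change of all tested genes from -0.01 to 0.01 or -0.02. Depth limits the rare members most: the tested genes had 67 to 48485 reads over the 4 libraries.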
